A study of Mus musculus with 41 samples.

Results

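The genes described here are 34 genes by which astrocytes are commonly recognised: channels, transporters, gap junction proteins, enzymes and secreted proteins. They were taken by gene symbol from a deposited table of 34591 gene entries, and all 34 were found in it. Expression was measured by bulk RNA-seq in 41 mouse libraries, 29 from brainstem tumors and 12 from neurospheres, in which progenitors of the embryonic brain grow as free spheres. Every tumor and culture carried 1 tagged allele of H3f3a, a gene of histone H3.3, behind a stop cassette between loxP sites (LSL) that Cre recombinase removes. The allele gave either H3.3 with a lysine replaced by methionine, the histone mutation of diffuse midline gliomas of children (K27M, H3f3aLSL-K27M-Tag/+), or unmutated H3.3 with the same tag (WT-Tag, H3f3aLSL-WT-Tag/+). The 20 K27M and 9 WT-Tag tumors also carried Nestin-creERT2, a Cre that needs an estrogen receptor ligand to act, a Cre-dependent mutant receptor (LSL-PDGFRαV544ins) and floxed Trp53 on both alleles (Trp53flox/flox). The cultures were made from e15.5 (embryonic day) forebrain or hindbrain with Nestin-cre, 3 K27M and 3 WT-Tag per region, and their labels list no receptor or Trp53 allele. Nestin is a gene of neural progenitors, so that the Cre lines act in these cells and mark what descends from them. Tumor RNA came from pieces of frozen tissue, which include the brain tissue of the host. The ages of the tumor-bearing mice are not in the labels. Tumors are named by tumor number and cultures by experiment id. The labels do not say whether the cultures of a group came from separate embryos, so p-values measure the spread between these libraries.

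Astrocytes clear glutamate and potassium from around synapses, couple to each other through gap junctions, wrap blood vessels with end-feet that hold water channels, and secrete lipoproteins and factors that act on synapses. They descend from the radial glia that first make neurons. Some genes of the list, such as Slc1a3 and Sox9, are already on in those progenitors, whereas Aqp4 and S100b are used as markers of later stages.

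Values are given as FPKM (fragments scaled to transcript length and library size). Depth is unknown because the table holds no counts, and the most frequent ratio between libraries among low values gave only the depth relative to 1 library, WT-Tag hindbrain culture 2. It had medians of 0.896 and 1.14 in K27M and WT-Tag tumors, 0.774 and 1.05 in forebrain cultures, and 0.785 and 1.00 in hindbrain cultures. Markers of neural stem and progenitor cells (10 genes) summed to between 1175 and 1904 FPKM in the cultures and 12 microglial markers to between 1.55 and 2.72, whereas the microglial sum was 176 to 642 in tumors. Among the microglial markers Aif1 was listed at 0 in all 3 K27M hindbrain cultures. In bulk RNA, fewer cells of a type and less RNA per cell cannot be told apart. Some libraries stood apart. The WT-Tag cultures of experiment 1 were the lowest of 3 for 24 of the 34 astrocyte genes in each region. Their 10 proliferation genes summed to 621 FPKM in forebrain and 641 in hindbrain, against 331 to 436 in the other WT-Tag cultures and 497 to 719 in the K27M cultures. K27M forebrain culture 3 was the lowest of 3 for 22 of the 34 astrocyte genes, and K27M hindbrain culture 3 the highest of 3 for 21. Experiment 3 was labelled male for WT-Tag and female for K27M. Sex-linked transcripts went against the labelled sex in WT-Tag tumors 8 and 9.

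Astrocyte genes were lower in K27M than in WT-Tag neurospheres. In the hindbrain cultures 19 of 31 tested genes fell and 0 rose, where 5.13% of all 13190 genes tested were called lower and 8.42% higher (limma, adjusted p under 0.05). In the forebrain cultures 6 of 31 fell and 0 rose, where 0.174% of all genes were called lower and 0.182% higher. The 6 were Agt, Clu, Mlc1, Plcd4, Sepp1 and Slc4a4, and all 6 were also among the 19. The median log2 change of the 31 genes was −1.01 in hindbrain and −0.65 in forebrain, beside 0.09 and 0.04 over all genes, and 29 of 31 were negative in each region, as were 37.7% and 40.8% of all genes. All 3 K27M cultures lay below all 3 WT-Tag cultures for 22 of 31 genes in hindbrain and 18 of 31 in forebrain, which held for 11.1% and 9.84% of all genes. The other 3 members, Slc7a10, Gjb6 and Fam107a, were under 1 FPKM in every culture and were not tested. With 3 libraries against 3, an exact permutation test of a single gene cannot give a p below 0.1.

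**Figure D1:**
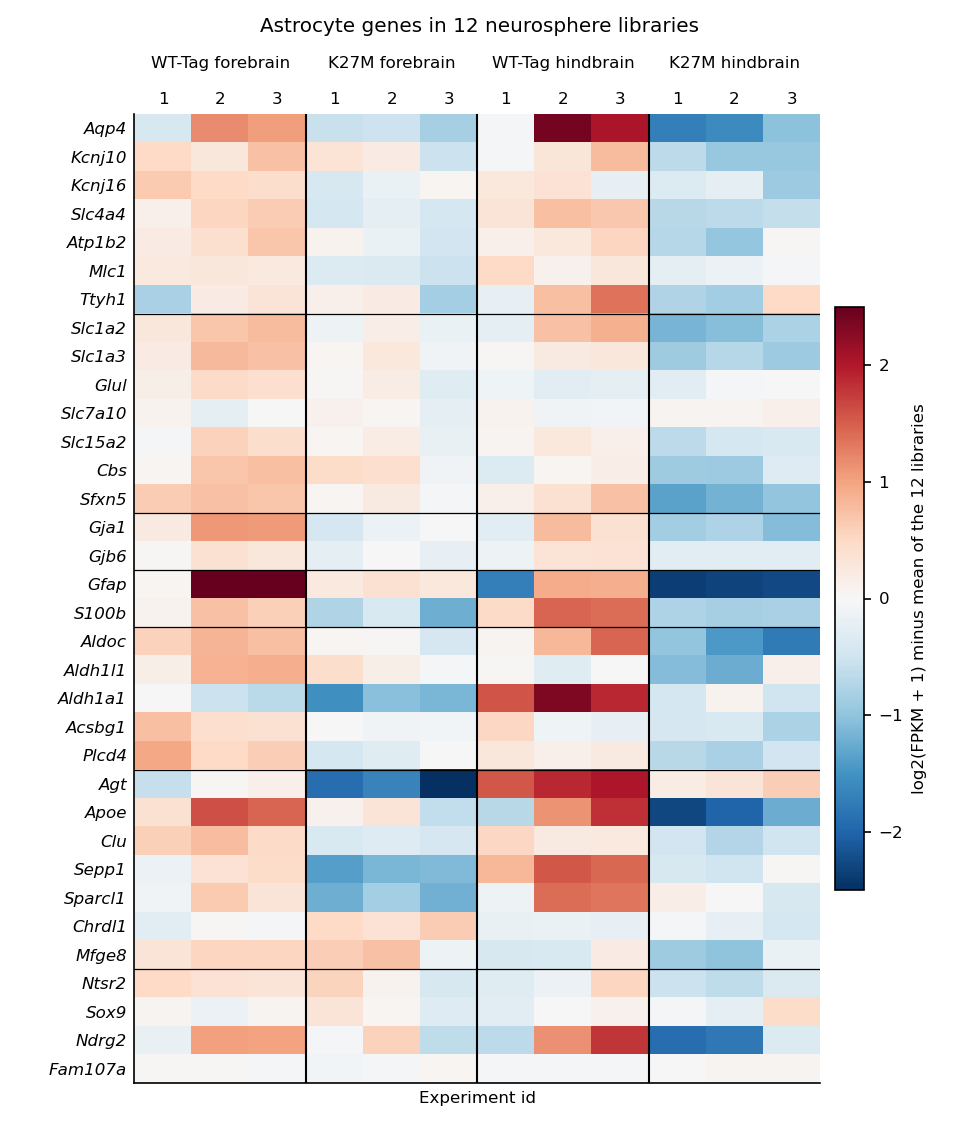
Expression of the 34 astrocyte genes (rows, grouped by role) in the 12 neurosphere libraries (columns, by group and experiment id), coloured by log2(FPKM + 1) minus the gene's mean over the 12. K27M hindbrain cultures are blue for most genes, those of WT-Tag experiments 2 and 3 are mostly red, and the WT-Tag cultures of experiment 1 lie between; colours stop at 2.5 log2 units.

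The number of genes called in forebrain was sensitive to single libraries. It was 4 without WT-Tag 1, 3 without WT-Tag 2 or K27M 3, and 2 without WT-Tag 3, K27M 1 or K27M 2. Over all genes tested, 20 to 37 were then called, beside 47 in the fit reported. Leaving out experiment 3, in which sex and genotype cannot be told apart, left 0 genes called in forebrain and 4 in hindbrain (Agt, Atp1b2, Clu and Sfxn5), with medians of −0.60 and −1.01. Over all genes tested, 0 were then called in forebrain and 97 in hindbrain, beside 47 and 1787 in the fit reported. Without experiment 1, 4 genes were called in forebrain, of which 2 were among the 6 (Sepp1 and Slc4a4), and 19 in hindbrain, of which 17 were among the 19. Over all genes tested, 15 and 2571 were then called. Some markers of other cells also differed between the genotypes. In hindbrain, 3 of 7 tested mature oligodendrocyte markers fell and all 7 changes were negative (median −1.26), and in forebrain 0 of 7 passed and all 7 were negative (median −0.81). Of 9 tested markers of oligodendrocyte precursors, 3 fell in hindbrain (Gpr17, Lhfpl3 and Nkx2-2, with changes down to −2.33) and 0 passed in forebrain. Directions in this list were mixed, with 4 of 9 changes positive in hindbrain (median −0.32) and 6 of 9 in forebrain (median 0.19). The summed FPKM of 11 precursor markers overlapped in hindbrain (424 to 474 in K27M and 406 to 522 in WT-Tag cultures). All 10 proliferation genes had positive changes in each region (medians 0.57 and 0.36), and 0 passed. The summed FPKM of 12 mature oligodendrocyte markers was 22.7 to 33.0 in K27M and 38.8 to 113 in WT-Tag hindbrain cultures, with Mog at 0 in all 3 K27M cultures. The proliferation sum was 497 to 652 in K27M and 331 to 641 in WT-Tag hindbrain cultures. The 10 progenitor markers had a lower sum in K27M hindbrain cultures (1175 to 1327 against 1667 to 1893), but 5 changes were positive and 5 negative, with a median of 0.01 and overlapping mean log2 levels (4.87 to 5.14 against 4.68 to 5.04). The part of these cells in the astrocyte results was not tested.

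Among the water, ion and membrane proteins, 5 of 7 fell in hindbrain and 2 of 7 in forebrain. Aqp4, the water channel of astrocyte end-feet, was at 21.7, 123 and 95.8 FPKM in WT-Tag hindbrain cultures 1, 2 and 3 and at 6.23, 6.85 and 10.5 in the K27M cultures. All K27M values were below all WT-Tag values, although WT-Tag 1 was far below the other two. The log2 change was −2.90 ± 0.57 (SE), the most negative of the list, with adjusted p = 0.00991. In forebrain Aqp4 was at 16.9, 52.3 and 47.3 FPKM in WT-Tag and 15, 15.4 and 12.3 in K27M cultures, without overlap, and the change of −1.24 ± 0.57 did not pass (adjusted p = 0.382). Without experiment 1 it did, with adjusted p = 0.0467. Slc4a4, a sodium bicarbonate cotransporter, had 31.5, 42.2 and 45.3 FPKM in WT-Tag and 20.8, 24.1 and 20.9 in K27M forebrain cultures. Its hindbrain values were 35.9, 48.6 and 46.2 FPKM against 17.4, 17.9 and 18.6. The genotypes did not overlap in either region, and Slc4a4 fell by 0.81 ± 0.15 and 1.22 ± 0.15 on the log2 scale (adjusted p = 0.0475 and 0.00104). Mlc1, a membrane protein of end-feet, was the most abundant of the group in cultures, at 155, 159 and 155 FPKM in WT-Tag and 104, 102 and 90.2 in K27M forebrain cultures. In hindbrain it stood at 186, 141 and 159 FPKM and 112, 118 and 129. These are narrow shifts without overlap, −0.66 ± 0.11 and −0.43 ± 0.11 (adjusted p = 0.0364 and 0.0323). The inward rectifier potassium channel gene Kcnj10 was low throughout, with hindbrain values of 2.81, 3.81 and 5.75 FPKM in WT-Tag and 1.47, 1.04 and 1.03 in K27M cultures, a change of −1.20 ± 0.25 (adjusted p = 0.0125). In forebrain it was 4.52, 3.74 and 5.50 against 3.97, 3.52 and 1.71 FPKM, and the groups overlapped (−0.49 ± 0.25, adjusted p = 0.435). Atp1b2, a beta subunit of the sodium pump and an adhesion molecule of glia, was at 13.3, 14.8 and 18.1 FPKM against 7.05, 5.70 and 12.4 in hindbrain (−0.86 ± 0.24, adjusted p = 0.0375). Its forebrain values of 14.2, 16.5 and 20.2 and 12.9, 10.7 and 8.39 FPKM gave −0.63 ± 0.24 (adjusted p = 0.299). Neither region overlapped. Kcnj16, another potassium channel, ran from 7.22 to 23.3 FPKM over the 12 cultures with changes of −0.70 in forebrain and −0.63 in hindbrain (adjusted p = 0.159 and 0.0521), and Ttyh1, a chloride channel family member, from 9.20 to 47.2 FPKM with −0.08 and −1.01 (adjusted p = 0.96 and 0.179).

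Several of these calls rested on single libraries. The Mlc1 call in forebrain was lost without any 1 of the 6 libraries (adjusted p of 0.0852 to 0.185) and with experiment id as a block (0.056), and in hindbrain without K27M 1, K27M 2 or WT-Tag 3 (0.0859 to 0.123). The Slc4a4 call in forebrain was lost without any library but WT-Tag 1 (0.0974 to 0.212) and with median-of-ratios scaling (0.0533), and the Atp1b2 call in hindbrain without K27M 1 or 2 or WT-Tag 2 or 3 (0.1 to 0.133).

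Of the 6 tested genes for glutamate, amino acid and peptide handling, 4 fell in hindbrain and 0 passed in forebrain. Slc1a3, the glutamate transporter GLAST of radial glia and astrocytes, was at 203, 232 and 240.4 FPKM in WT-Tag and 107, 119.8 and 105 in K27M hindbrain cultures. Every K27M culture had about the same level, 2.04-fold below the WT-Tag mean (−1.02 ± 0.16, adjusted p = 0.00419). In forebrain the values of 230.0, 349 and 330.2 and 205, 239 and 185 FPKM overlapped, with WT-Tag 1 below K27M 2 (−0.51 ± 0.16, adjusted p = 0.212). Slc1a2, the transporter GLT-1 of mature astrocytes, was at 17.5, 35.7 and 39.8 FPKM in WT-Tag and 8.78, 9.56 and 11.8 in K27M hindbrain cultures (−1.46 ± 0.26, adjusted p = 0.00665). Its forebrain values were 25.8, 34.7 and 37.1 and 19, 23.9 and 18.6 FPKM, without overlap (−0.63 ± 0.26, adjusted p = 0.331). Sfxn5, a mitochondrial sideroflexin, had the lowest adjusted p of the list in hindbrain, 0.000332, with 28.3, 34.3 and 44.0 FPKM in WT-Tag and 9.75, 10.8 and 12.6 in K27M cultures (−1.58 ± 0.15). Forebrain Sfxn5 was at 40.8, 44.0 and 42.4 and 26.7, 30.7 and 24.9 FPKM (−0.61 ± 0.15, adjusted p = 0.119). WT-Tag and K27M cultures were apart in both regions. The peptide transporter Slc15a2 stood at 11.8, 13.8 and 12.3 against 6.82, 8.02 and 8.38 FPKM in hindbrain (−0.64 ± 0.15, adjusted p = 0.0214), a call that was lost without K27M 1 or 2 or WT-Tag 2 or 3 (0.0506 to 0.0898). In forebrain it was at 11, 17.2 and 15.7 and 11.6, 12.9 and 9.75 FPKM with overlap (−0.32 ± 0.15, adjusted p = 0.419). Glul, glutamine synthetase, behaved apart from the transporters: it ran from 62.4 to 76.1 FPKM in the hindbrain cultures with a change of 0.10 ± 0.14 (adjusted p = 0.663), and its forebrain change was −0.39 ± 0.14 (adjusted p = 0.266). Cbs, an enzyme of transsulfuration, ran from 5.86 to 20.7 FPKM over the 12 cultures with −0.23 and −0.66 in forebrain and hindbrain (adjusted p = 0.713 and 0.0845). Slc7a10, a serine and glycine transporter, was at 0.180 to 0.510 FPKM and untested.

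Gfap, the intermediate filament of astrocytes, had the widest spread of the tested genes over the cultures. In hindbrain it was at 0.703, 9.69 and 9.47 FPKM in WT-Tag cultures and 0.092, 0.129 and 0.173 in K27M cultures. The groups did not overlap and their means differed 50.4-fold, yet the change of −2.35 ± 0.79 did not pass (adjusted p = 0.0707), and WT-Tag 1 was more than 10 times below the other two. It passed without that culture (−3.23, adjusted p = 0.00651), with experiment id as a block (adjusted p = 0.0283) and with a pseudocount of 0.1 (0.018). In forebrain the values were 4.80, 51.7 and 32.8 FPKM in WT-Tag and 5.62, 6.32 and 5.71 in K27M cultures, where WT-Tag 1 lay below all 3 K27M cultures (−1.66 ± 0.79, adjusted p = 0.405; 0.0302 without experiment 1). S100b, a calcium-binding protein, was at 7.95, 16.5 and 16 FPKM against 2.77, 2.63 and 2.65 in hindbrain, with K27M cultures nearly equal and all below WT-Tag (−1.91 ± 0.27, adjusted p = 0.00268). Its forebrain values of 5.78, 9.67 and 8.66 and 2.83, 3.93 and 1.75 FPKM also did not overlap (−1.25 ± 0.27, adjusted p = 0.0968). Of the gap junction genes, Gja1 (connexin 43) was at 47.1, 97.9 and 74.0 FPKM in WT-Tag and 30.3, 32.9 and 26.1 in K27M hindbrain cultures (−1.21 ± 0.27, adjusted p = 0.0169), a call that was lost without K27M 1 or 3 or WT-Tag 2 or 3 (0.0555 to 0.0735). In forebrain it was at 65.9, 121 and 118 and 42.2, 50.5 and 57.1 FPKM, again without overlap (−0.97 ± 0.27, adjusted p = 0.17). Gjb6 (connexin 30) stayed at 0.013 to 0.616 FPKM and was not tested.

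Of the 5 enzymes, 3 fell in hindbrain and 1 in forebrain. Aldoc, the brain aldolase, was at 44.3, 75.7 and 117 FPKM in WT-Tag and 20.8, 14.8 and 11.6 in K27M hindbrain cultures (−2.18 ± 0.30, adjusted p = 0.00232). In forebrain it stood at 63.7, 77.2 and 71.6 and 43.9, 43.1 and 31.1 FPKM (−0.84 ± 0.30, adjusted p = 0.267). Both regions showed K27M below WT-Tag in every culture. Aldh1a1, which makes retinoic acid, was at 9.75, 17.3 and 12.3 FPKM against 1.68, 2.84 and 1.55 in hindbrain, 6.5-fold lower in K27M by the means (−2.22 ± 0.24, adjusted p = 0.000728). Its forebrain levels were near the filter of 1 FPKM, 2.59, 1.5 and 1.26 and 0.243, 0.751 and 0.647 (−0.83 ± 0.24, adjusted p = 0.182). Plcd4, a phospholipase C, fell in both regions, with 24.3, 17.4 and 18.8 and 8.56, 9.55 and 11.9 FPKM in WT-Tag and K27M forebrain cultures (−0.94 ± 0.15, adjusted p = 0.0187). The hindbrain values of Plcd4 were 14.8, 13.1 and 14.1 and 7.03, 6.32 and 8.25 FPKM (−0.87 ± 0.15, adjusted p = 0.0051). No K27M culture reached a WT-Tag culture, although the forebrain call was lost without WT-Tag 1 or 3 or K27M 1 or 2 (0.0564 to 0.109). Aldh1l1, a folate enzyme much used to mark astrocytes, did not pass. It was at 42.7, 33.6 and 42.1 FPKM in WT-Tag and 19.4, 17.2 and 46.1 in K27M hindbrain cultures, where K27M 3 was the highest of the 6 (−0.63 ± 0.32, adjusted p = 0.206), and without K27M 3 the change was −1.06 and passed (0.0263). Its forebrain values were 46.5, 77.7 and 80.1 and 56.9, 46.4 and 40.3 FPKM, which overlapped (−0.47 ± 0.32, adjusted p = 0.57). Acsbg1, an acyl-CoA synthetase, ran from 46.1 to 136 FPKM with changes of −0.56 and −0.60 (adjusted p = 0.231 and 0.0568).

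Of the 7 secreted proteins, 3 fell in forebrain and 4 in hindbrain. Agt, angiotensinogen, was at 9.0, 14.3 and 15.45 FPKM in WT-Tag and 3.01, 3.72 and 1.51 in K27M forebrain cultures, 4.70-fold lower by the means (−1.91 ± 0.25, adjusted p = 0.00589). In hindbrain it was at 42.9, 54.3 and 59.8 and 16.1, 17.6 and 21.9 FPKM (−1.45 ± 0.25, adjusted p = 0.00545). K27M hindbrain cultures thus held as much Agt as WT-Tag forebrain cultures or more. Clu, the extracellular chaperone clusterin, had 12.9, 14.7 and 11.8 FPKM in WT-Tag and 6.11, 6.37 and 5.93 in K27M forebrain cultures (−0.98 ± 0.11, adjusted p = 0.00339). The hindbrain values were 12.2, 9.83 and 9.98 and 5.64, 4.56 and 5.55 FPKM (−0.90 ± 0.11, adjusted p = 0.00127). Replicates of Clu were close to each other in all 4 groups. Agt and Clu were the genes whose calls in both regions were kept when each library was left out in turn. Sepp1, which encodes selenoprotein P, a carrier of selenium, was at 29.6, 42.5 and 45.5 and 12.1, 14.4 and 14.9 FPKM in forebrain (−1.42 ± 0.22, adjusted p = 0.0175). In hindbrain it stood at 59.8, 99.0 and 90.4 and 24.6, 23.1 and 33.9 FPKM (−1.56 ± 0.22, adjusted p = 0.00232). The genotypes were apart in both regions, and the forebrain call was lost without any library but WT-Tag 1 (0.0552 to 0.106). Apoe, the main apolipoprotein of the brain, was the most abundant member in WT-Tag cultures of experiments 2 and 3, with 135, 476 and 772 FPKM in WT-Tag and 44.2, 53.7 and 91.9 in K27M hindbrain cultures (−2.59 ± 0.57, adjusted p = 0.0149). The call was lost without K27M 1 or WT-Tag 2 or 3 (0.0571 to 0.0668). In forebrain Apoe was at 285, 671 and 597 and 236, 272 and 143 FPKM, without overlap but with a spread that left it uncalled (−1.21 ± 0.57, adjusted p = 0.4). Sparcl1, a synapse-promoting matrix protein, ran from 54.0 to 336 FPKM with changes of −1.38 and −0.95 (adjusted p = 0.137 and 0.0973). Chrdl1, an inhibitor of BMP signaling, went the other way without overlap in forebrain: 6.67, 8.45 and 8.06 FPKM in WT-Tag and 12, 10.8 and 13.3 in K27M forebrain cultures (0.58 ± 0.12, adjusted p = 0.0825), beside −0.04 ± 0.12 in hindbrain (adjusted p = 0.862). Mfge8, a bridge for the uptake of dying cells, ran from 68.3 to 229 FPKM with −0.06 and −0.49 (adjusted p = 0.952 and 0.231).

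The remaining 4 members behaved differently from one another. Sox9, a transcription factor needed for gliogenesis, was nearly level, at 8.95, 7.62 and 8.92 and 10.9, 8.78 and 6.64 FPKM in WT-Tag and K27M forebrain cultures and 6.77, 8.43 and 9.21 and 8.20, 7.05 and 12.1 in hindbrain. The groups overlapped in both regions, and the changes of 0.02 ± 0.20 and 0.13 ± 0.20 did not pass (adjusted p = 0.978 and 0.688), the forebrain one turning to −0.03 with median-of-ratios scaling. Ndrg2, of the NDRG protein family, was at 29.1, 104 and 162 FPKM in WT-Tag and 11.7, 12.9 and 36.7 in K27M hindbrain cultures (−2.09 ± 0.62, adjusted p = 0.0471). K27M 3 exceeded WT-Tag 1, and the call was lost without K27M 1 or 2 or WT-Tag 2 or 3 (0.131 to 0.169). Forebrain Ndrg2 was at 41.1, 95.8 and 94.7 and 45.7, 70.4 and 29.5 FPKM (−0.65 ± 0.62, adjusted p = 0.694). Ntsr2, a neurotensin receptor, was low, from 0.795 to 3.09 FPKM over the 12 cultures, with −0.31 and −0.54 (adjusted p = 0.63 and 0.166). Fam107a, an actin-binding protein gene, was at 0 to 0.104 FPKM.

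**Figure D2:**
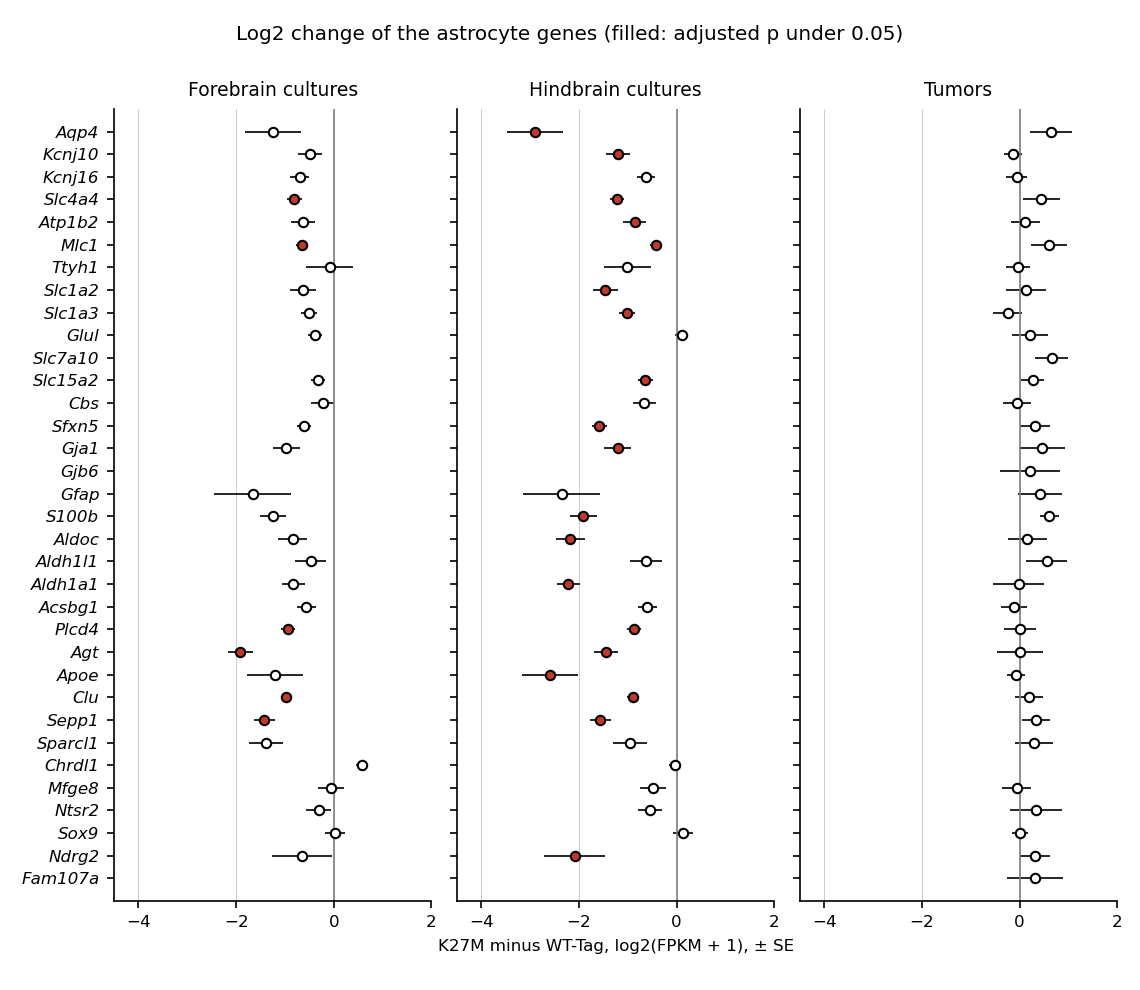
Log2 change of K27M against WT-Tag for each astrocyte gene in forebrain cultures (3 against 3), hindbrain cultures (3 against 3) and tumors (20 against 9), as points with SE bars on log2(FPKM + 1); filled points passed adjusted p under 0.05 and untested genes are left blank. Points lie left of 0 for 29 of 31 genes in each culture panel, and for 9 of 33 genes in the tumor panel.

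The 6 genes that fell in both regions are those for which promoter sequence is shown, since the K27M histone is a chromatin protein and CpG content separates promoter classes. RefSeq promoter entries (GRCm38.p6) were found for 28 of the 34 genes, including 5 of these 6; Aqp4, Atp1b2, Chrdl1, Clu, Sox9 and Sparcl1 had none in the table. The 250 bases before the start site (the more upstream of its starts for Slc4a4) are given 5′ to 3′, with CpG dinucleotides in capitals.
Agt: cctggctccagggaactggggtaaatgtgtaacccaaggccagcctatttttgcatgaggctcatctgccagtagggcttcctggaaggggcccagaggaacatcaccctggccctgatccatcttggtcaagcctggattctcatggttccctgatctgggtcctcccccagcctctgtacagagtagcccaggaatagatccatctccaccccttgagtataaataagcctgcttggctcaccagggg
Mlc1: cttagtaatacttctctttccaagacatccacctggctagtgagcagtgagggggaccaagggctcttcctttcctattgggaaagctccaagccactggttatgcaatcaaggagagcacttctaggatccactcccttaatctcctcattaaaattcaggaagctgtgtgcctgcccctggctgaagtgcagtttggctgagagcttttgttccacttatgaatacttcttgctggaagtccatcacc
Plcd4: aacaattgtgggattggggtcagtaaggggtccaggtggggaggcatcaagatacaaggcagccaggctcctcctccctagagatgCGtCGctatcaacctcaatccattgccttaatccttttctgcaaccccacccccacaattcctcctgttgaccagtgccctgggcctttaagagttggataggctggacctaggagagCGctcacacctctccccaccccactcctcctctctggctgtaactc
Sepp1: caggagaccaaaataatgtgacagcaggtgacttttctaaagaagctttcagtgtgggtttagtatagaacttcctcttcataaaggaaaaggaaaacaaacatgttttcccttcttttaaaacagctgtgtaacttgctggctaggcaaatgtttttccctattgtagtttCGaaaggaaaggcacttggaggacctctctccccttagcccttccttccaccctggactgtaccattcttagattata
Slc4a4: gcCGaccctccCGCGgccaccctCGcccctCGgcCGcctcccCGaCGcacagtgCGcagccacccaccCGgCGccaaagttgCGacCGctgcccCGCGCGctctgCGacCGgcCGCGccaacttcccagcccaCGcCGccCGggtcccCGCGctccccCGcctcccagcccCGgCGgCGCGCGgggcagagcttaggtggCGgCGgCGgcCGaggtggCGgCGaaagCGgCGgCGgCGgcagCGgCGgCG
The Agt window is chr8:124569707-124569956 on the minus strand, Mlc1 chr15:88978554-88978803 on the minus strand, Plcd4 chr1:74542639-74542888 on the plus strand, Sepp1 (RefSeq Selenop) chr15:3270517-3270766 on the plus strand and Slc4a4 chr5:88887010-88887259 on the plus strand. Agt and Mlc1 had 0 CpG, Sepp1 1 and Plcd4 3, whereas Slc4a4 had 44 and a GC content of 82.0%. The median over the 28 genes was 5 CpG, beside 6 over all 27025 promoters of the table. A ratio of observed to expected CpG of at least 0.6 was found in 5 of 28 (17.9%) and in 34.5% of all promoters. The letters TTCNNNGAA, which STAT factors bind, were found on either strand in 5 of 28 windows (Acsbg1, Agt, Kcnj16, Ntsr2 and Slc1a3) and in 7.14% of all promoters. TGGGAA, bound by the Notch factor RBPJ, was found in 10 of 28 and in 21.5% of all, and TTGGCA, part of the site of NFI factors, in 4 of 28 and 12.5%. The full NFI site was found in 0 of 28 and 0.0407% of all, and the SOX letters AACAAT in 1 of 28 and 9.62%. The AP-1 letters TGANTCA were found in 2 of 28 and 6.85%, and TATAAA in 3 of 28 and 13%. Such matches describe letters only.

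Forebrain and hindbrain were then compared. The difference between the forebrain and the hindbrain K27M effect passed for 0 of 31 members (0.0379% of all genes, limma; of 5 genes called, 1 was higher, and of 4 with median-of-ratios scaling 0), and 7 had an unadjusted p under 0.05, as did 6.30% of all genes. The closest was Sfxn5, whose change was 0.97 ± 0.21 less negative in forebrain (adjusted p = 0.234). Without WT-Tag hindbrain 1, 5 members passed, all with the more negative effect in hindbrain: Aqp4, Slc1a2, Sfxn5, Aldoc and Aldh1a1. In that setting 295 of all genes tested were called, beside 5 in the fit reported. Among WT-Tag cultures, 3 members were higher in hindbrain than in forebrain and 0 lower, where 1.11% and 0.713% of all genes were called. They were Aldh1a1 (2.34 ± 0.24, adjusted p = 0.000457), Agt (1.96 ± 0.25, 0.00163) and Sepp1 (1.05 ± 0.22, 0.0314), each without overlap between the regions. The count was 6 without WT-Tag hindbrain 1 and 2 without each of the other 5 libraries, where the Sepp1 call was lost (0.0541 to 0.126), and 1 (Agt) without experiment 3. Calls over all genes were 240 in the fit reported, 580 without WT-Tag hindbrain 1 and 68 without experiment 3. Among K27M cultures the same 3 genes were higher in hindbrain (4.47% of all genes), Agt by 2.42 ± 0.25 (adjusted p = 0.000184), Aldh1a1 by 0.96 ± 0.24 (0.035) and Sepp1 by 0.91 ± 0.22 (0.0255). Another 7 were lower (3.45% of all genes): Sfxn5 (−1.24), Aldoc (−1.29), Mfge8 (−1.09), Cbs (−0.97), Slc1a2 (−0.96), Slc1a3 (−0.91) and Chrdl1 (−0.72). Of the 10, the calls of Agt, Sfxn5, Slc1a3 and Chrdl1 held when each library was left out in turn. Those of Aldh1a1 and Slc1a2 were lost without any 1 of the 6 libraries (0.0573 to 0.127 and 0.0747 to 0.16). Cbs and Mfge8 lost theirs without forebrain 1 or 2 or hindbrain 1 or 2 (0.0869 to 0.114 and 0.0958 to 0.119), Aldoc without forebrain 1 or 2 or hindbrain 2 or 3 (0.0673 to 0.0989) and Sepp1 without any but hindbrain 2 (0.0555 to 0.1). The total was 4 without forebrain 1 or 2, 5 without hindbrain 1 or 2, 8 without forebrain 3 and 7 without hindbrain 3. Calls over all genes were then 493 to 756, beside 1044 in the fit reported. These comparisons share libraries with those of the genotypes.

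A wider list of 40 other genes of astrocytes and their precursors gave 17 lower and 2 higher of 34 tested in K27M hindbrain cultures (median −0.58) and 2 lower and 1 higher in forebrain (median −0.41). Over all genes tested, 5.13% were called lower and 8.42% higher in hindbrain, and 0.174% and 0.182% in forebrain. The largest falls in hindbrain were Slc39a12, a zinc transporter (−1.99 ± 0.15, adjusted p = 7.11e-05), Lcat, a cholesterol-esterifying enzyme (−1.89 ± 0.37, 0.0105), the cell adhesion protein gene Hepacam (−1.61 ± 0.23, 0.00247), Pla2g7, a phospholipase (−1.58 ± 0.19, 0.00117), and Mt3, a metallothionein of the brain (−1.57 ± 0.11, 5.83e-05). Mt3 and Slc39a12 also fell in forebrain, by 0.91 ± 0.11 and 1.14 ± 0.15 (adjusted p = 0.00388 and 0.0067). Grin2c, an NMDA receptor subunit, went the other way in both regions. Its lowest value in the 3 K27M forebrain cultures was 10.7 FPKM, above the WT-Tag values of 2.13, 2.78 and 4.31 (1.88 ± 0.21, adjusted p = 0.00339). In hindbrain the values, lowest to highest, were 1.58, 2.87 and 2.88 FPKM in K27M and 0.093, 0.140 and 0.172 in WT-Tag cultures (1.58 ± 0.21, 0.00221). Tnc, a matrix protein of radial glia, was higher in K27M hindbrain cultures (1.10 ± 0.23, 0.0136). Of 16 genes of reactive astrocytes, 9 were tested. In hindbrain 2 were higher and 0 lower: Vim, vimentin, at 916, 951 and 991 FPKM in K27M and 328, 372 and 625 in WT-Tag cultures (1.16 ± 0.19, adjusted p = 0.00518), and the small heat shock protein gene Hspb1 (0.81 ± 0.23, 0.0407). In forebrain 0 of the 9 passed. Vim is also an intermediate filament of progenitors. Of the 10 progenitor markers 1 was higher in K27M hindbrain cultures (Nes) and 2 were lower (Fabp7 and Prom1).

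In the tumors, 0 of 33 tested members passed (limma; 0.0846% of all 15360 genes did), and 1, S100b, had an unadjusted p under 0.05, as did 7.19% of all genes. The median log2 change was 0.21, beside −0.01 over all genes, with 24 positive and 9 negative (46.6% of all genes were positive), and it was −0.15 without WT-Tag tumors 8 and 9. S100b had 64.6, 142 and 224 FPKM as the lowest, median and highest value in 20 K27M tumors and 35.6, 96.8 and 149 in 9 WT-Tag tumors (0.61 ± 0.20, adjusted p = 0.46). Aqp4 ran over 10.7, 82.9 and 176 FPKM in K27M and 7.47, 63.7 and 249.7 in WT-Tag tumors (0.64 ± 0.43, 0.776), and Gfap over 76.4, 252 and 629.5 and 23.7, 308 and 624 FPKM (0.42 ± 0.46, 0.863). Every such pair of ranges overlapped widely. The glutamate transporter Slc1a2 had 10.1, 66.6 and 133 FPKM and 11.5, 60.0 and 142 (0.14 ± 0.41, 0.953), and Slc1a3 14.9, 33.7 and 61.8 and 14.1, 30.2 and 111 (−0.24 ± 0.30, 0.88). Aldoc was at 33.4, 252 and 506 and 37.6, 269.6 and 571 FPKM (0.16 ± 0.40, 0.939), and Aldh1l1 at 2.41, 15.8 and 45.5 and 2.13, 11.8 and 24 (0.56 ± 0.42, 0.798). Apoe was the most abundant member, at 487, 839.9 and 1277 FPKM in K27M and 404, 920.2 and 1617 in WT-Tag tumors (−0.07 ± 0.19, 0.947). Sox9 was low in both, at 1.24, 3.13 and 6.10 and 1.79, 2.59 and 6.18 FPKM (0.01 ± 0.17, 0.995). Without WT-Tag tumors 8 and 9 the changes of Slc1a2, Gfap, Aldoc and Sox9 turned negative (−0.34, −0.19, −0.19 and −0.02). All 12 mature oligodendrocyte markers were also positive in tumors (median 0.64), as were 12 of 13 neuronal markers (median 0.47), and 0 passed. Chrdl1 was at 0.26 to 1.39 FPKM in K27M and 0.183 to 5.25 in WT-Tag tumors and was not tested.

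Spread among tumors of 1 genotype was wide and shared by the members. Gjb6 spanned 96.0-fold between the lowest and highest K27M tumor, Fam107a 76.1-fold and Ntsr2 62.9-fold, against 2.62-fold for Apoe and 3.10-fold for Ttyh1. The 34 values summed to between 1611 and 5112 FPKM in K27M tumors (median 3294) and between 1193 and 5079 in WT-Tag tumors (median 3166). K27M tumors 1, 4, 3, 14 and 22 were among the 5 lowest of their group for 27, 26, 25, 24 and 20 of the 34 genes, and WT-Tag tumors 9, 8 and 28 among the 3 lowest for 29, 28 and 28. The proliferation sums were highest in the tumors with the lowest astrocyte sums, but did not follow this spread in every tumor. WT-Tag tumor 10 had the highest astrocyte sum of its group and ranked 3 from the highest in proliferation (120 FPKM). K27M tumor 17 ranked 8 from the lowest in astrocyte sum and 18 from the highest in proliferation. The 4 K27M tumors with the lowest astrocyte sums (3, 4, 1 and 22) had the 4 highest proliferation sums, 186 to 268 FPKM, and WT-Tag tumors 9 and 28 had the lowest astrocyte sums and the highest proliferation sums of their group (403 and 296). Neuronal markers were low in the same tumors, with summed FPKM of 100.2, 109 and 138 in K27M tumors 3, 4 and 1, which were 3 of the 4 lowest of 20, and 81.1, 98.8 and 106 in WT-Tag tumors 9, 28 and 8, the 3 lowest of 9. The mean log2 level of mature oligodendrocyte markers was lowest in WT-Tag tumors 9 and 8 (3.53 and 3.77), and K27M tumors 3, 4 and 14 were among the 4 lowest of 20 (4.53, 4.54 and 4.59). The part of other cells in the astrocyte levels was not tested. Ependymal and choroid plexus markers summed to over 100 FPKM in K27M tumors 5, 13, 19 and 25 and WT-Tag tumor 26, and with these left out 0 members passed as well. Only 1 of all genes tested was called in that setting, beside 13 in the fit reported, so that the count says little about the members.

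**Figure D3:**
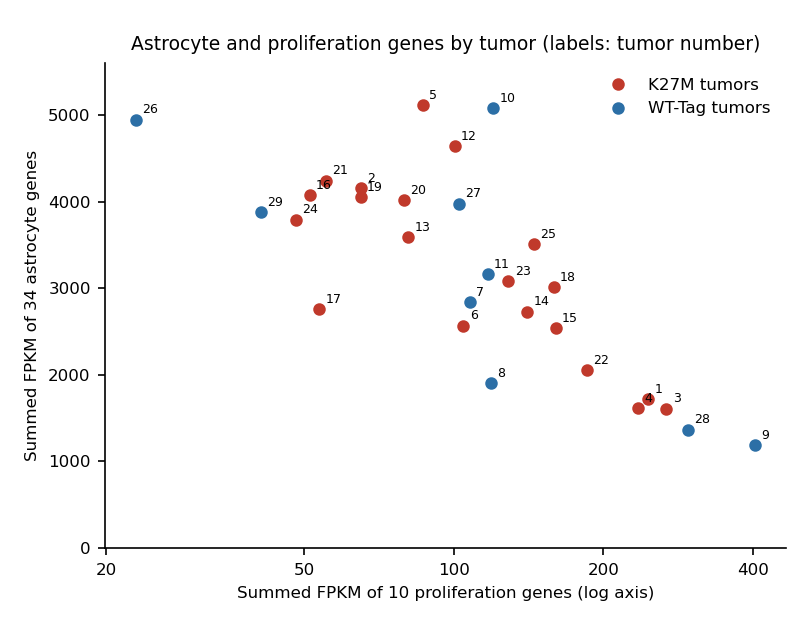
Summed FPKM of the 34 astrocyte genes (vertical axis) against the summed FPKM of 10 proliferation genes (horizontal, log axis) in 29 tumors, 1 labelled point per tumor, K27M in red and WT-Tag in blue. Tumors 9, 28, 3, 4 and 1 lie at the lower right, with astrocyte sums of 1193 to 1723 FPKM, and the genotypes overlap on both axes.

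Tumors differed from hindbrain neurospheres of the same genotype in a way that varied between members. The comparison sets tumor tissue with its host cells against embryonic cultures, so tissue, age, the receptor and Trp53 alleles and preparation cannot be told apart. Against K27M hindbrain cultures, 19 of 34 members were higher and 7 lower in K27M tumors, where 33.1% and 26.5% of all 16803 genes were called. Against WT-Tag hindbrain cultures, 10 were higher and 13 lower in WT-Tag tumors, where 28.9% and 17.4% of all genes were called. The median change was 1.42 for K27M and 0.06 for WT-Tag, beside 0.10 and 0.16 over all genes. With median-of-ratios scaling the WT-Tag medians were −0.07 and 0.05, a shift of all genes by over 0.1, and the share of called genes that were higher moved from 62.3% to 52.2%, with 9 members higher and 13 lower. Gjb6, Fam107a and Slc7a10 were under 1 FPKM in every culture and entered the test only through the tumors, so that their direction was fixed by the filter; they make up 3 of the 19 and, with Gjb6 and Fam107a, 2 of the 10. All 10 genes higher in WT-Tag tumors were also higher in K27M tumors, and all 7 lower in K27M tumors were also lower in WT-Tag tumors.

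The 10 genes higher in tumors of both genotypes were Gfap, S100b, Kcnj10, Clu, Apoe, Aldoc, Glul, Gjb6, Fam107a and Ntsr2. Gfap showed the largest difference: the lowest of 20 K27M tumors had 76.4 FPKM and the highest K27M hindbrain culture 0.173 (7.85 ± 0.70, adjusted p = 9.06e-12), and for WT-Tag the change was 5.08 ± 0.76 (1.28e-06). S100b changed by 5.23 ± 0.30 in K27M and 2.71 ± 0.32 in WT-Tag, and no tumor overlapped a culture. Clu had 33.7, 97.4 and 152 FPKM as lowest, median and highest value in K27M tumors and 25.8, 87.6 and 131 in WT-Tag tumors (3.71 ± 0.40 and 2.63 ± 0.43). Kcnj10 had 14.1, 30.2 and 57.8 and 15.8, 28.6 and 54.6 FPKM (3.79 ± 0.28 and 2.72 ± 0.30). Every tumor was above every hindbrain culture of its genotype for both. Glul reached 57.8, 268 and 489 FPKM in K27M and 55.6, 282 and 526 in WT-Tag tumors (1.68 ± 0.51 and 1.56 ± 0.55). Gjb6 (3.27 ± 0.83 and 2.58 ± 0.89) and Fam107a (3.59 ± 0.79 and 3.35 ± 0.85) had tumor medians of 10.6 to 18.6 FPKM. Ntsr2, at 0.795 to 3.03 FPKM in hindbrain cultures, changed by 2.94 ± 0.74 and 2.07 ± 0.80. In WT-Tag, the calls of Apoe (0.51 without WT-Tag hindbrain 1, adjusted p = 0.304), Gjb6 (without 1, 0.0758), Aldoc and Ntsr2 (without 1 or 2, 0.107 to 0.243 and 0.0992 to 0.118) and Glul (without any, 0.0542 to 0.0637) depended on single cultures, and the WT-Tag count fell to 16 without hindbrain 1 and 17 without hindbrain 2. Of all genes tested, 5430 and 6070 were called in these settings, beside 7779 in the fit reported.

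The 7 genes lower in tumors of both genotypes were Slc1a3, Mlc1, Sox9, Plcd4, Slc15a2, Cbs and Chrdl1. Slc1a3 reached 61.8 FPKM in the highest K27M tumor and 105 in the lowest K27M hindbrain culture (−1.73 ± 0.41, adjusted p = 0.000498), and the WT-Tag ranges were also apart (−2.51 ± 0.44, 1.94e-05). Mlc1 was at 7.12, 33.8 and 67.8 FPKM in K27M and 4.48, 17.2 and 56.5 in WT-Tag tumors, below every culture of its genotype (−2.09 ± 0.51 and −3.12 ± 0.55). Sox9 changed by −1.35 ± 0.24 and −1.23 ± 0.26, again with no overlap. Plcd4 (0.413, 2.78 and 7.61 and 0.293, 3.65 and 6.51 FPKM) changed by −1.16 ± 0.46 and −2.04 ± 0.49, and Slc15a2 (1.31, 4.04 and 6.87 and 1.54, 2.76 and 10.4 FPKM) by −0.81 ± 0.32 and −1.72 ± 0.34. Chrdl1 changed by −2.21 ± 0.24 and −2.07 ± 0.26, and Cbs by −0.92 ± 0.39 and −1.54 ± 0.42. The K27M calls of Plcd4, Slc15a2, Cbs and Agt were lost without any 1 of the 3 K27M hindbrain cultures (0.0538 to 0.194), which left 22 members called. Of all genes tested, 8157 to 8874 were called in these settings, beside 10008 in the fit reported. Another 6 members passed as lower in WT-Tag and not in K27M: Slc4a4 (−1.84 ± 0.55), Gja1 (−2.20 ± 0.72), Sfxn5 (−1.44 ± 0.44), Aldh1l1 (−1.95 ± 0.63), Mfge8 (−1.22 ± 0.45) and Kcnj16 (−0.88 ± 0.34). Of these, Gja1 lost its call without WT-Tag hindbrain 2 (0.067), Kcnj16 without 1 or 2 (0.115 to 0.126) and Mfge8 without any of the 3 (0.0509 to 0.119). Another 9 passed as higher in K27M and not in WT-Tag: Ndrg2 (3.37 ± 0.48), Aqp4 (3.07 ± 0.63), Aldh1a1 (2.84 ± 0.73), Slc1a2 (2.35 ± 0.57), Agt (1.58 ± 0.67), Slc7a10 (1.56 ± 0.47), Atp1b2 (1.43 ± 0.41), Ttyh1 (1.42 ± 0.39) and Sepp1 (1.41 ± 0.40). The test of the difference between the genotypes did not pass for any of these 15. In tumors Ndrg2 was at 67.1, 239 and 403 FPKM in K27M and 52.2, 193 and 352 in WT-Tag, Aldh1a1 at 1.20, 26.5 and 56.2 and 3.75, 24.5 and 67.4, and Agt at 8.31, 68.6 and 179.6 and 9.09, 80.0 and 161. Sepp1 was at 26.9, 72.9 and 137 and 27, 59.3 and 126 FPKM, Atp1b2 at 7.16, 24.1 and 38.1 and 3.69, 27.9 and 48.5, and Slc4a4 at 2.89, 19.4 and 36.1 and 2.12, 11.4 and 40.8. Gja1 had 4.62, 24.5 and 61.6 FPKM in K27M and 2.71, 14.7 and 58.1 in WT-Tag tumors, and Sfxn5 4.87, 14.7 and 30.2 and 4.99, 13.1 and 22.5. Levels of the genotypes overlapped for each of these genes.

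**Figure D4:**
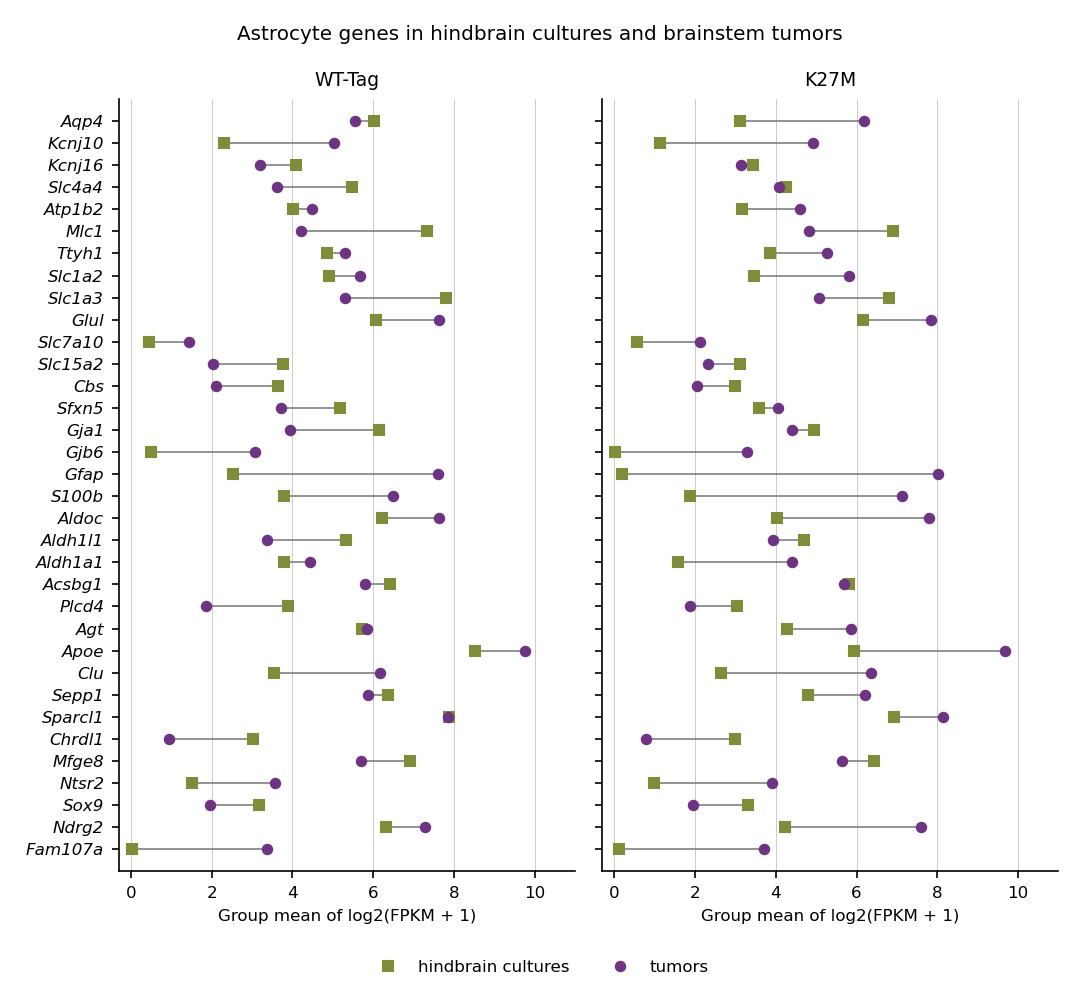
Group mean of log2(FPKM + 1) of each astrocyte gene in hindbrain cultures (squares) and tumors (circles), for WT-Tag (3 cultures, 9 tumors) on the left and K27M (3 cultures, 20 tumors) on the right, joined by a line. Gfap moves furthest to the right in both panels, and Mlc1 and Slc1a3 move left in both.

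The K27M effect was then compared between tumors and hindbrain cultures directly, as the difference of the log2 changes. It was positive for 32 of 34 members, where 42.5% of all genes were positive, and 2 of 34 passed, both positive, where 0.280% of all genes were called in that direction. S100b was 0.61 ± 0.20 in tumors and −1.91 ± 0.27 in hindbrain cultures, a difference of 2.52 ± 0.44 (adjusted p = 0.00126). Apoe was −0.07 ± 0.19 and −2.59 ± 0.57, a difference of 2.52 ± 0.51 (0.0073). The differences came from the fit of all 41 libraries, where tumors and cultures share a spread per gene, and their parts from separate fits. For Apoe the SE of the difference was thus below that of the culture part, whose wide spread counts for less in the shared fit. Aqp4 had a difference of 3.54 ± 0.93 that did not pass (0.0713), and Gfap one of 2.76 ± 1.03 (0.336). The count was 4 without WT-Tag hindbrain 1 (with Aqp4 and Ndrg2 added) and 1, S100b, without K27M hindbrain 1 or WT-Tag hindbrain 2 or 3, where Apoe had an adjusted p of 0.0708 to 0.142. With separate weights for the spread of tumors and of cultures 10 passed. Calls over all genes were 98 in the fit reported, 201 without WT-Tag hindbrain 1 and 911 with these weights. The K27M and WT-Tag libraries of both comparisons above enter this difference, which adds no independent data. Some markers of other cells moved the same way. All 12 mature oligodendrocyte markers were positive (median 1.44, 1 called), as were all 13 neuronal markers (median 0.55, 0 called), beside a median of 1.05 for the astrocyte genes. Others did not. Negative differences were found for 10 of 12 microglial markers (median −0.12), 9 of 10 proliferation genes (median −0.59) and 6 of 10 progenitor markers (median −0.06). Endothelial markers were positive for 7 of 10, with a median of 0.07. The part of these cells in the result was not tested.

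**Figure D5:**
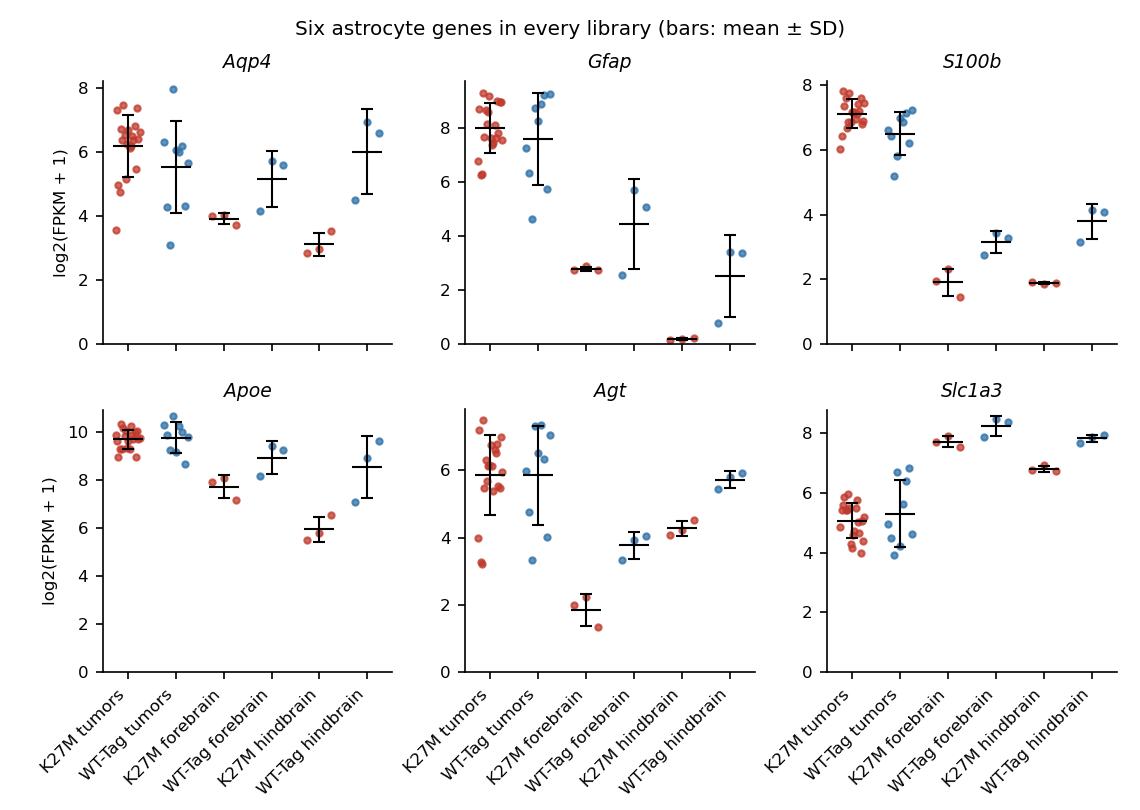
log2(FPKM + 1) of 6 astrocyte genes in every library of the 6 groups (K27M red, WT-Tag blue), with the group mean ± SD as bars. For Aqp4, Gfap, S100b and Apoe the hindbrain cultures of the genotypes are apart while the tumors overlap, Agt is higher in hindbrain than in forebrain cultures, and Slc1a3 is higher in cultures than in tumors.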

How the data were processed

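Per the labels' protocols, Trizol was used for extraction and a TruSeq Stranded Total RNA kit for the libraries. The tools CASAVA, TopHat2 and STAR and the build mm9 come, with no version or role, from the submitters' processing notes. Read counter and gene annotation: not given in the sources used here. FPKM per gene and library were deposited by the authors in 1 table. Count models need counts and were not used, depth is unknown, and whether counting used strand is not stated, so antisense and overlapping genes are uncertain.

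Tests used limma 3.58.1 (R 4.3.3) on log2(FPKM + 1), with the variance trended on mean expression. Tests were 2-sided, with p adjusted by Benjamini-Hochberg over all genes tested, with a threshold of 0.05. This scale understates changes of low genes. Tumors (FPKM of at least 1 in at least 9 of 29), the 12 cultures as 4 groups (at least 1 in at least 3) and all 41 libraries as 6 groups (the same filter) were fitted separately, with 15360, 13190 and 16803 genes. Relative depth came from the most frequent ratio of FPKM between libraries among genes at 0.05 to 0.6 FPKM.

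On simulated data, 200 genes above a minimum mean level were changed, with noise drawn independently for each gene. The test recovered 84% of 2-fold changes in tumors (15218 genes), 87% in forebrain cultures (12958 genes) and 90% in hindbrain cultures (12967 genes). It recovered 71% for K27M tumors against K27M hindbrain cultures (16236 genes, where 6.18% of calls were false). The members shared a wide spread among tumors, which was not simulated, so these shares do not give the power for the members. The experiment id was read as pairing cultures because the labels name a shared experiment, but the fits reported held no block for it and were unpaired. The correlation of same-numbered deviations was 0.44, −0.23 and 0.35 between the forebrain genotypes and 0.41, 0.15 and 0.44 between the hindbrain genotypes. Between forebrain and hindbrain it was 0.67, 0.71 and 0.16 in WT-Tag and 0.22, −0.05 and −0.04 in K27M cultures. The regions of an experiment are thus not fully independent in WT-Tag cultures. The id entered as a block in an alternative fit.

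The genes, role groups and lists were chosen with earlier results of these data known. Named with all values are members called in a K27M against WT-Tag comparison or in a difference of such effects, plus Gfap, Aqp4, Slc1a2, Slc1a3, Aldh1l1, S100b, Aldoc and Sox9; other members by role group; of the other lists, up to 5 called genes per direction. No 2 libraries were identical. Gene coordinates are not given because no mm9 annotation was used; promoter windows are those of RefSeq.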

Additional observations from a re-analysis of the deposited data

Results flagged for a closer look

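S100b and Apoe are listed here because the effect of K27M itself differed between tumors and hindbrain cultures by a test of the difference. For S100b the difference of log2 changes was 2.52 (limma, adjusted p = 0.00126), from 0.61 ± 0.20 between the tumor genotypes and −1.91 ± 0.27 between the hindbrain culture genotypes. For Apoe the difference was 2.52 (adjusted p = 0.0073), from −0.07 ± 0.19 in tumors and −2.59 ± 0.57 in cultures. Each difference came from the fit of all 41 libraries, in which tumors and cultures share a spread per gene, and its parts from separate fits. All 3 K27M hindbrain cultures were below all 3 WT-Tag cultures for both genes, whereas the tumors overlapped. The Apoe difference was 1.99 to 2.33 and not called without K27M hindbrain 1 or WT-Tag hindbrain 2 or 3 (adjusted p of 0.0708 to 0.142).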

How the results depend on the processing

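Of the values for single members under alternative settings, 1193 kept their direction and side of the threshold, 189 lost the call, 7 gained it and 28 turned direction; the 28 were changes that had not passed. The count of members called moved by over 1.5 times as follows. With no filter on low values it was 2 in forebrain (6 in the fit reported) and 4 for hindbrain against forebrain in K27M cultures (10). The calls over all genes were 35 (47) and 844 (1044). Without experiment 3, which leaves 8 cultures, the count of members was 0 in forebrain, 4 in hindbrain (19) and 1 for the regions in WT-Tag cultures (3). The calls over all genes were 0 (47), 97 (1787) and 68 (240). With array weights for tumors and cultures the tumor minus culture effect had 10 members (2) and 911 of all genes (98).

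With 1 library left out, the counts ranged from 2 to 4 in forebrain, 13 to 23 in hindbrain, 0 to 5 for the difference between regions, 2 to 6 and 4 to 8 for the regions in WT-Tag and K27M cultures, 22 to 22 and 16 to 22 for K27M and WT-Tag tumors against cultures, 1 to 4 for the tumor minus culture effect, and 0 to 0 in tumors. An arm then holds 2 libraries and shares the spread estimated from the other groups. The calls over all genes ranged from 20 to 37 in forebrain, from 554 to 4212 in hindbrain and from 0 to 295 for the difference between regions. For the regions they ranged from 122 to 580 in WT-Tag and from 493 to 756 in K27M cultures. Tumors against cultures had 8157 to 8874 in K27M and 5430 to 6561 in WT-Tag. The tumor minus culture effect had 26 to 201, and the tumor genotypes 8 to 18. With experiment id as a replicate block the counts were 5 in forebrain, 22 in hindbrain (all 19 and Gfap, Kcnj16 and Acsbg1), 0 for the difference between regions, and 3 and 13 for the regions in WT-Tag and K27M cultures. In the same order, the block called 54 of all genes (47 in the fit reported), 2258 (1787), 0 (5), 253 (240) and 1108 (1044). Beside Mlc1 in forebrain and those gained, the block changed no call named above in the genotype comparisons.

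Changes near 0 turned direction. In tumors without WT-Tag tumors 8 and 9, Slc1a2 was at −0.34, Gfap at −0.19, Aldoc at −0.19 and Sox9 at −0.02, and with 1 tumor left out Slc1a2 ranged from −0.11 to 0.33, Aldoc from −0.13 to 0.35 and Sox9 from −0.05 to 0.12. In forebrain Sox9 was at −0.03 with median-of-ratios scaling, −0.10 without experiment 1 (chosen after seeing the data, like the setting without ependymal tumors) and from −0.13 to 0.19 with 1 library left out, and in hindbrain from −0.08 to 0.28. The cause was not tested.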
